A study of Mus musculus with 16 samples.

Results

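The genes of the autophagy core machinery were followed in RNA from the aorta of ApoE-/- mice, a strain without the lipoprotein ligand apolipoprotein E that develops atherosclerosis. The set held 41 genes in 5 steps: 5 of initiation, 8 of the lipid kinase complexes, 9 of lipid transfer and phosphoinositide binding, 15 of conjugation and 4 of fusion. The members were taken by name from a list of the pathway, and each was read from the deposited locus that names it and has the highest mean FPKM (fragments scaled to transcript length and library depth) over 16 libraries, so 41 of 70603 deposited loci were used. All 41 passed the filter on low values, which asked for an FPKM of at least 1 in 4 libraries, as did 24091 loci in all. Feeding of a Western or a normal purified diet began at 8 weeks of age, and aortas were taken after 6 or 22 weeks, at 14 or 30 weeks of age. There were 4 groups of 4 libraries: normal diet at 6 weeks (Sham6W), Western diet at 6 weeks (AS6W), normal diet at 22 weeks (Sham22W) and Western diet at 22 weeks (AS22W). Every group carried the ApoE genotype, which the design text gives as ApoE-/- and the genotype label as "APOE knockdown", and no wild-type group was analysed here. The labels do not say whether a library came from 1 mouse or from pooled mice, so a p-value measures the spread between these libraries.

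Macroautophagy encloses part of the cytoplasm in a double membrane and carries it to the lysosome. The ULK kinase complex starts the process, the class III lipid kinase complex around Vps34 (Pik3c3) and Beclin (Becn1) marks the growing membrane with phosphatidylinositol 3-phosphate, and the lipid transfer proteins Atg2a and Atg2b with the scramblase Atg9a feed it with lipid. A ubiquitin-like cascade of Atg7, Atg3, Atg10 and the Atg12-Atg5-Atg16l1 complex then couples the proteins of the LC3 and GABARAP families to the membrane, and the SNARE proteins Stx17, Snap29 and Vamp8 join the closed vesicle to the lysosome. In atherosclerosis autophagy is known for its part in clearing lipid from macrophages and in the survival of smooth muscle cells; much of it is regulated on proteins rather than on transcripts.

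Library totals ran from 45253433 to 81397840 estimated counts. The summed FPKM of 10 smooth muscle markers was 2450 to 3628 in the 8 libraries of 6 weeks and 880 to 2247 in the 8 of 22 weeks, so the labelled tissue was present throughout. Some libraries stood apart in markers of neighbouring tissue: AS6W replicate 1 in 11 T cell and thymocyte markers (summed FPKM 117), Sham6W replicate 2 and Sham22W replicate 4 in 6 B cell markers (40.3 and 52.9), and Sham22W replicate 4 and AS22W replicate 3 in 7 cardiac muscle markers (250 and 173). The counts of members called at an adjusted p of 0.05 were also taken without these 4 libraries. The libraries kept are not free of other tissue. Over the 16 libraries the sum of 8 adipocyte markers was 545 to 1497, and that of 9 brown adipocyte markers 234 to 2283. In whole aorta, fewer cells of a type and less RNA per cell cannot be told apart.

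The LC3 and GABARAP genes led the set in level per transcript length. Gabarapl1 had the highest mean FPKM over the 16 libraries (49.2, range 16.5 to 68.5), followed by Map1lc3a (40.0, range 30.7 to 53.4), Gabarap (26.7, range 17.7 to 34.5), Gabarapl2 (11.8, range 9.27 to 16.3) and Map1lc3b (11.4, range 5.97 to 19.1). These 5 were the only members with a mean of 10 or more. The other 36 lay between 8.77 for Atg13, the adaptor that brings Ulk1 to the complex, and 2.37 for the protease gene Atg4c, with a median over all 41 members of 4.82. Among the remaining steps the highest mean FPKM was that of Ambra1 (6.93), a scaffold of the lipid kinase complex, of Vmp1 (6.96), a membrane scramblase, and of Epg5 (6.34), a tether of late endosomes. Of the 40 pairs of neighbours in this order, only Gabarap and Gabarapl2 had ranges over the 16 libraries that did not overlap. Apart from that pair, the order is therefore not resolved from one rank to the next, among the first 5 genes or below them.

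**Figure D1:**
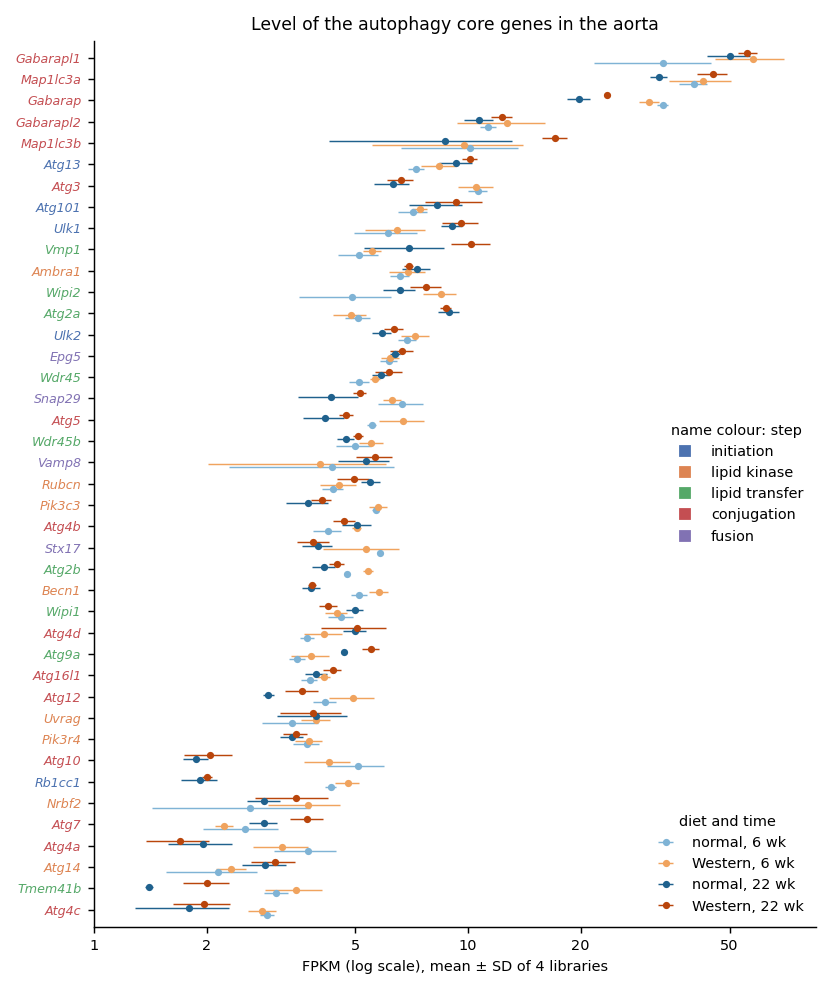
Deposited FPKM (log scale, mean ± SD of 4 libraries) of the 41 autophagy core genes in each group, ordered by the mean over 16 libraries, with gene names coloured by step. Gabarapl1, Map1lc3a and Gabarap stand above 26 FPKM on average, and 36 of the 41 genes have a mean below 10.

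Some of these levels carry a limit from the loci themselves. The loci of Atg9a (with Abcb6 and Gm29253), Wdr45 (with Gm45208 and Praf2), Gabarap (with Ctdnep1 and Gm44349), Vmp1 (with Mir21a) and Vamp8 (with Vamp5) name other genes too, and their counts cannot be split. The exons of 11 members overlap those of a gene on the opposite strand, among them Becn1 with Cntd1, Map1lc3b with Zcchc14 and Snap29 with Pi4ka, and whether counting used the strand is not given in the sources used here. Counts of 12 members were spread over several loci. The chosen locus of Atg10, the ligase that couples Atg12 to Atg5, held 18.5% of the counts of its 35 loci, that of Ambra1 66.8% of its 6, that of Rb1cc1 69.8% of its 4 and that of Atg3 74.4% of its 2.

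The sequence before the start site was read for the E-box CACGTG, the core of the element bound by the TFEB family of lysosomal and autophagy regulators, which reads the same on either strand. RefSeq windows of 250 bases before to 50 after the start (GRCm38.p6) were at hand for 33 of the 41 members. The motif was in the window of 6 of these 33 genes (18.2%), Atg3, Atg5, Atg7, Atg14, Nrbf2 and Rubcn, against 8.09% of 27025 genes with a window. The longer palindrome known as the CLEAR element, with this E-box at its centre, was in none of the 38 windows of members and in 0.326% of 32851 windows overall. The stretches of 100 bases that hold the motif wholly before the start are shown 5′ to 3′ on the strand of the gene, with each CACGTG in capitals, because these members share the letters but not the direction of their transcript values given below.
Atg3, chr16:45158699-45158798, plus strand: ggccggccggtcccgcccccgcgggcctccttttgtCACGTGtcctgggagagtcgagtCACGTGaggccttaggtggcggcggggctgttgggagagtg
Atg5, chr10:44268239-44268338, plus strand: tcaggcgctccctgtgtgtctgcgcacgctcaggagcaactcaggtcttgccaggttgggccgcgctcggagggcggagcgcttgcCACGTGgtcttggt
Atg7, chr6:114670917-114671016, plus strand: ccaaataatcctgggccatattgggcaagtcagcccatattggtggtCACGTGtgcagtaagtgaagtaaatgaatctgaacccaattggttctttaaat
Nrbf2, chr10:67285432-67285531, minus strand: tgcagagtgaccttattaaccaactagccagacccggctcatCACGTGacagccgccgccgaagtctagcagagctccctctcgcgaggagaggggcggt
Rubcn, chr16:32868402-32868501, minus strand: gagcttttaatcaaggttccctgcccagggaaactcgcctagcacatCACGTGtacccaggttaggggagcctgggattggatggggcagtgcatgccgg
Atg3 held 2 copies, 94 and 71 bases before the start, and Nrbf2 held its copy 208 bases before it. In Atg14 the motif lay across the start site. The windows of Atg7 and Rubcn lie inside the deposited loci, at an inner start site of these genes. A match describes these letters and is no measure of binding.

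The comparison of diets asks which genes of the machinery differ in the aorta between Western-fed and normal-fed mice at the same time. None of the 41 members passed an adjusted p of 0.05 in the quasi-likelihood test of edgeR, adjusted over 24091 loci by Benjamini-Hochberg, at 6 weeks, at 22 weeks or in the difference of the diet effects between the times. Calls were rare everywhere in these comparisons: 0.282% of all loci passed at 6 weeks, 0.228% at 22 weeks and 0.183% in the difference. At an unadjusted p under 0.05 there were 3 members at 6 weeks, 9 at 22 weeks and 7 in the difference. Of all loci 10.7%, 14.3% and 12.0% had such a p, and the 3 of 41 at 6 weeks are a smaller share. With a filter at FPKM 5, 911, 1300 and 1179 of 6186 loci had such a p, a larger share than over all loci. The members were not counted this way at that filter. The median log2 fold change of the members was 0.03 at 6 weeks and 0.10 at 22 weeks, against 0.00 and -0.03 over all loci. At 22 weeks 32 of the 41 values were above 0 and 9 below, where 11100 of the 24091 loci were above 0 and 12984 below. The values of the members come from the same libraries and are not independent.

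Counted by overlap, the 4 Western libraries all lay above the 4 normal ones in 4 members at 6 weeks, which is 9.76% of the 41 against 3.19% of all loci, and below them in 0 members against 4.20% of all loci. At 22 weeks they lay above in 8 members, 19.5% against 4.52% of all loci, and below in 1 member, 2.44% against 2.99%. The 4 members of 6 weeks were Atg2b, Atg4b, Atg5 and Gabarapl1. The 9 members of 22 weeks were Atg9a, Vmp1, Tmem41b, Atg7, Atg12, Map1lc3a, Map1lc3b and Gabarap on the higher side and Wipi1 on the lower side. They are the same 9 members that had an unadjusted p under 0.05 at 22 weeks, so the counts are not independent. Shares without overlap were not counted for loci of higher level alone. No member was in both lists. These lists rest on counts scaled to library size. In the deposited FPKM Wipi2, Becn1 and Atg16l1 were also without overlap at 6 weeks, and Wdr45b at 22 weeks. All of these were higher on the Western diet. Shares over all loci on the FPKM scale were not counted. The summed FPKM of 12 macrophage markers was also without overlap at 22 weeks, 289 to 587 on the normal diet and 703 to 980 on the Western diet, as was that of 10 markers of lipid-laden macrophages, 231 to 377 and 535 to 636, and that of 9 brown adipocyte markers, 234 to 657 and 844 to 1781. The sum of 10 skeletal muscle markers had a median of 5.96 on the normal diet and 71.0 on the Western diet, with overlap (2.05 to 13.5 and 10.1 to 92.3). Their part in the members' values was not tested.

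**Figure D2:**
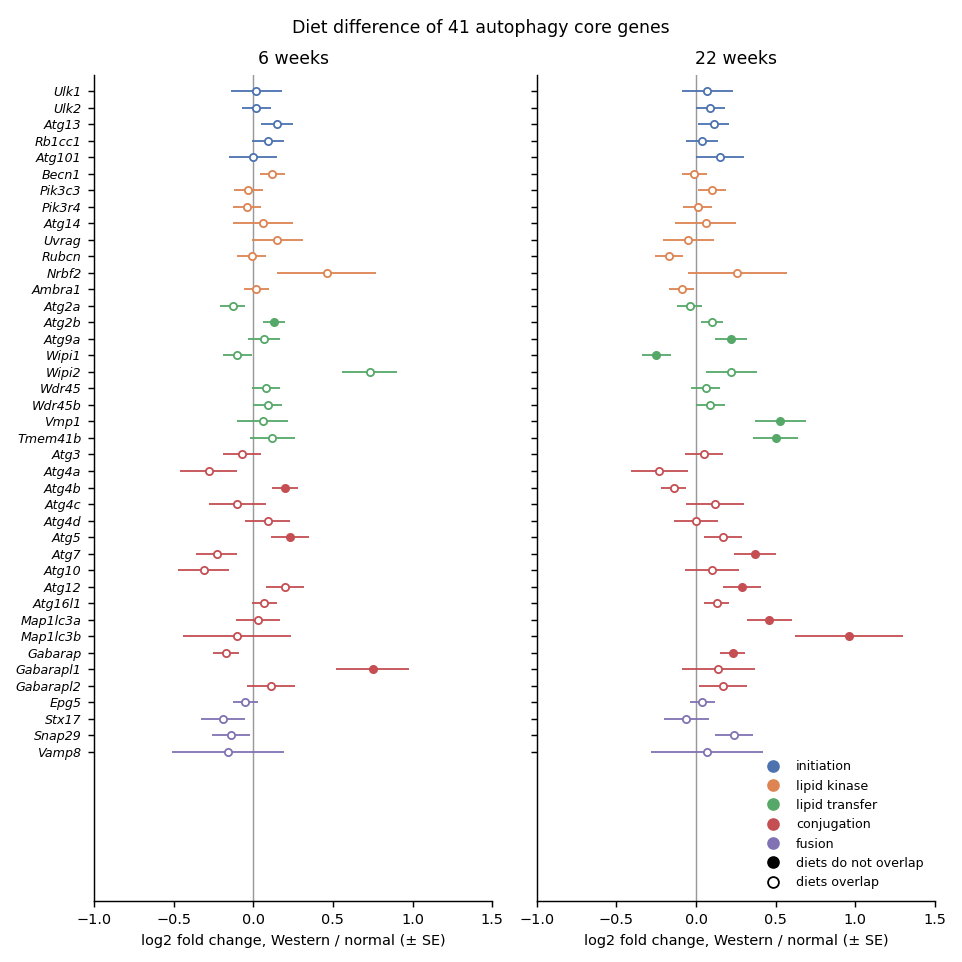
Log2 fold change of each of the 41 genes, Western over normal diet, with its standard error from edgeR, at 6 weeks (left) and 22 weeks (right), coloured by step. Filled points are genes whose 4 Western and 4 normal libraries do not overlap in CPM (4 at 6 weeks, 9 at 22 weeks), and none of the 41 passes the adjusted threshold at either time.

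The genes of initiation gave diet values near 0. Ulk1 and Ulk2 encode the kinases, Atg13, Rb1cc1 and Atg101 the partners that hold them. Their log2 fold changes ran from 0.00 to 0.15 at 6 weeks and from 0.04 to 0.15 at 22 weeks, with standard errors of 0.09 to 0.16, and no pair of groups was free of overlap. Atg13, the highest of the step, stood at 35.4, 35.4, 38.8 and 40.1 CPM (counts scaled to library size by TMM) in the normal-diet libraries of 6 weeks and at 36.1, 46.9, 39.5 and 43.4 in the Western ones. At 22 weeks it stood at 54.8, 54.6, 50.2 and 61.4 on the normal diet and at 53.0, 63.1, 61.1 and 60.7 on the Western diet. The diets overlapped at both times, and both 22-week groups lay above both 6-week groups.

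The lipid kinase genes gave log2 fold changes of -0.04 to 0.46 at 6 weeks and -0.17 to 0.26 at 22 weeks. Of these 0 of 8 were called, and in CPM no groups were free of overlap. In FPKM the 6-week diets of Becn1 were, by 5.40 to 5.41 at the nearest. Becn1, the scaffold of the complex, gave 0.12 ± 0.08 (SE) and -0.01 ± 0.08, and Pik3c3, its catalytic subunit, -0.03 ± 0.09 and 0.10 ± 0.09. Ambra1, the highest of this step in FPKM, stood at 61.4, 68.9, 69.0 and 64.5 CPM on the normal diet at 6 weeks and at 66.1, 62.8, 75.6 and 62.4 on the Western diet. At 22 weeks its values were 80.1, 87.8, 79.1 and 91.6 on the normal diet and 78.1, 83.5, 78.5 and 78.3 on the Western diet. The widest value of the step was that of Nrbf2, which encodes a subunit of the Atg14-containing complex, at 0.46 ± 0.31 for 6 weeks. In this group Sham6W replicate 1 held 3.62 CPM where the other 3 libraries of the group held 11.1 to 14.3.

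Lipid transfer and phosphoinositide binding held the members nearest to the threshold. Wipi2 (chr5:142627698-142670588 of GRCm38, plus strand), which reads phosphatidylinositol 3-phosphate and recruits Atg16l1, was at 49.7, 48.0, 86.3 and 59.2 CPM on the normal diet at 6 weeks. On the Western diet it was at 84.9, 105, 99.7 and 114, so that only Sham6W replicate 3 reached into the Western range. In FPKM the diets did not overlap, at 3.96 to 6.82 and 7.24 to 9.22. The log2 fold change was 0.73 ± 0.17 with an adjusted p of 0.0964. Without Sham6W replicate 3 it was 0.95 with an adjusted p of 0.00763, and the adjusted p was 0.00582 in DESeq2, 0.0276 in limma on log2(FPKM + 0.5), 0.0307 with a pseudocount of 0.1 and 0.0245 in edgeR with a filter at FPKM 5. In the other 15 alternatives Wipi2 did not pass, with log2 fold changes of 0.64 to 0.81 and adjusted p of 0.0586 to 0.262, among them 0.252 without the 4 libraries. At 22 weeks Wipi2 was at 89.5, 85.3, 98.5 and 103 on the normal diet and at 95.0, 129, 110 and 105 on the Western diet, 0.22 ± 0.16 with an adjusted p of 0.592. The difference between the times was -0.51 ± 0.23 and did not pass (adjusted p = 0.402).

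At 22 weeks the lowest p among the members was that of Tmem41b (chr7:109972187-109986451, minus strand), a scramblase of the endoplasmic reticulum. Its normal-diet libraries were tightly placed, at 11.4, 10.9, 11.6 and 11.0 CPM, and its Western libraries all lay higher, at 17.5, 18, 14.3 and 13.8. The log2 fold change was 0.50 ± 0.14 with an adjusted p of 0.121, and DESeq2 called it at an adjusted p of 0.0262. At 6 weeks the diets overlapped, at 23.0, 19.4, 22.5 and 20.1 CPM against 18, 22.6, 22.5 and 29.4. Vmp1 (chr11:86583521-86683836, minus strand), which works beside Tmem41b and shares its locus with the microRNA gene Mir21a, was at 64.5, 54.3, 61.8 and 34.4 CPM on the normal diet at 22 weeks and at 68.7, 71.7, 81.9 and 87.6 on the Western diet. All 4 Western libraries were higher, by 0.53 ± 0.16 on the log2 scale (adjusted p = 0.149), and the value was 0.36 without Sham22W replicate 4, the lowest library. At 6 weeks the Vmp1 locus was at 30.7, 30.6, 40.7 and 34.8 on the normal diet and at 33.3, 35.2, 37.8 and 35.9 on the Western diet.

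Wipi1, a relative of Wipi2 that also binds phosphoinositides, was the member whose Western libraries all lay lower at 22 weeks. Its CPM was 40.3, 44.6, 40.0 and 40.6 on the normal diet and 33.7, 33.2, 37.6 and 34.2 on the Western diet. The log2 fold change was -0.25 ± 0.09 and did not pass (adjusted p = 0.197). At 6 weeks the values overlapped, at 31.2, 29.6, 35.5 and 35.8 against 28.3, 31.7, 32.7 and 30.4. Atg9a, with Abcb6 in its locus, was at 76.4, 75.4, 75.2 and 73.3 CPM on the normal diet at 22 weeks and at 79.9, 94.6, 93.6 and 81.3 on the Western diet, a log2 fold change of 0.22 ± 0.10 (adjusted p = 0.323). Its 6-week values overlapped, at 51.0, 44.9, 47.8 and 50.5 against 42.2, 56.3, 49.3 and 56.5. Atg2b, which carries lipid into the growing membrane, was at 89.8, 87.0, 89.7 and 91.5 on the normal diet at 6 weeks and at 98.1, 93.8, 95.2 and 105 on the Western diet, a log2 fold change of 0.13 ± 0.07 (adjusted p = 0.576). Its paralog Atg2a gave -0.13 ± 0.08 at 6 weeks and -0.04 ± 0.08 at 22 weeks.

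**Figure D3:**
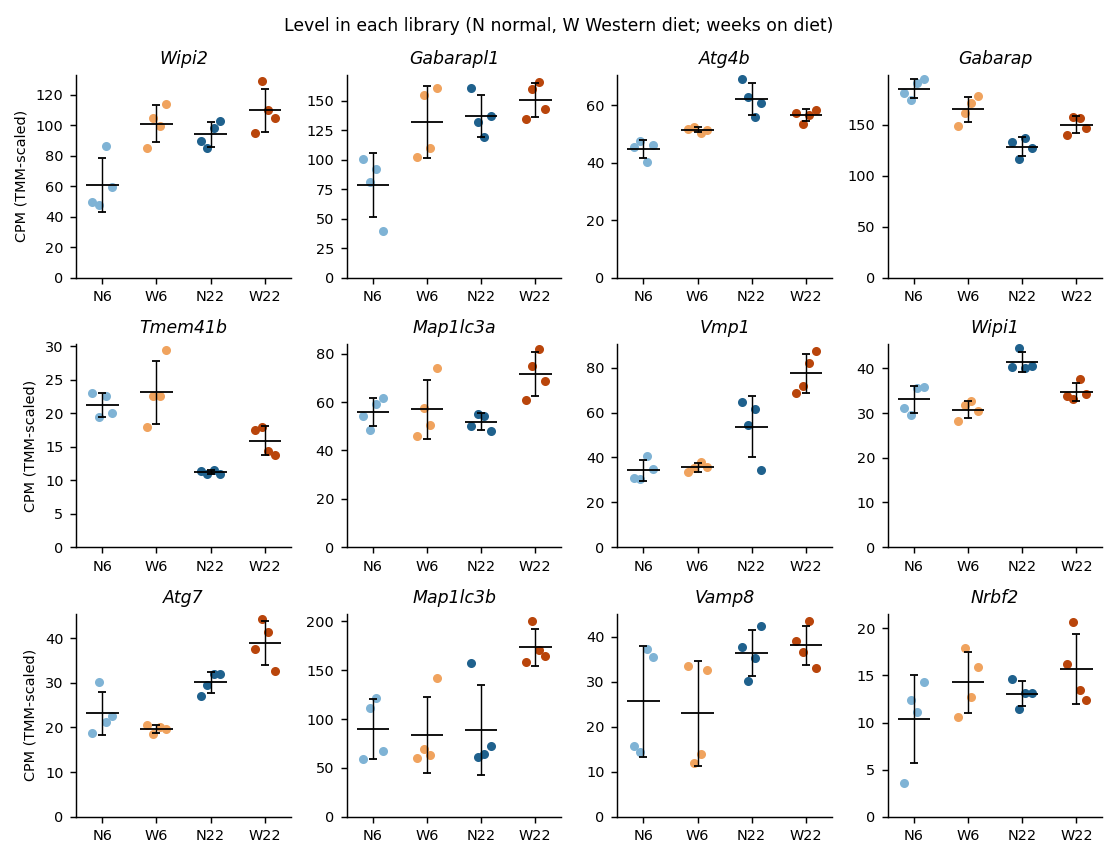
TMM-scaled CPM of 12 members in each library (points), with the group mean and SD (lines), for the normal (N) and Western (W) diet at 6 and 22 weeks. Wipi2 and Gabarapl1 are lowest in the normal-diet group of 6 weeks, the Western points of Tmem41b, Vmp1, Map1lc3a and Map1lc3b lie above the normal ones at 22 weeks without passing the adjusted threshold (Map1lc3b by 158 to 157 CPM at the nearest), and Map1lc3b and Vamp8 are split into a low and a high level within groups.

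Among the conjugation genes 13 of 15 diet values at 22 weeks were above 0, with a median of 0.14. On the higher side 5 were free of overlap. Over all loci 11100 of 24091 were above 0, and 4.52% were free of overlap on that side. Atg7 (chr6:114643097-114860614, plus strand), the activating enzyme of the cascade, was at 27.0, 29.6, 31.9 and 32.0 CPM on the normal diet and at 37.5, 44.2, 41.4 and 32.7 on the Western diet, 0.37 ± 0.13 on the log2 scale (adjusted p = 0.216). At 6 weeks it was at 18.8, 30.1, 21.2 and 22.5 against 20.6, 18.5, 20 and 19.7. The difference of the diet effects was 0.61 ± 0.19 and did not pass (adjusted p = 0.203). Atg4b, the main protease of LC3 and GABARAP precursors, lay higher on the Western diet at 6 weeks and overlapped at 22 weeks. It was at 45.4, 47.5, 40.3 and 46.3 CPM on the normal diet of 6 weeks against 51.8, 52.4, 50.4 and 51.5 on the Western diet, and at 69.2, 63.0, 55.9 and 60.9 against 57.4, 53.6, 56.5 and 58.4 at 22 weeks. The log2 fold changes were 0.20 ± 0.08 and -0.14 ± 0.08, and their difference of -0.34 ± 0.11 did not pass (adjusted p = 0.236). The proteases Atg4a, Atg4c and Atg4d gave diet values of -0.28 to 0.09 at 6 weeks and -0.23 to 0.12 at 22 weeks, all with overlap. Atg10 was at 11.8, 10.6, 7.87 and 10.7 against 7.90, 7.78, 7.15 and 10.3 CPM at 6 weeks, and at 4.26, 4.42, 4.94 and 3.99 against 4.15, 5.47, 4.04 and 5.24 at 22 weeks, with overlap at both times. Atg12 and Atg5, the conjugated pair, gave 0.20 ± 0.12 and 0.23 ± 0.12 at 6 weeks and 0.29 ± 0.12 and 0.17 ± 0.12 at 22 weeks. Atg3, the conjugating enzyme, gave -0.07 ± 0.12 and 0.05 ± 0.12, and Atg16l1 gave 0.07 ± 0.08 and 0.13 ± 0.08.

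The LC3 and GABARAP genes encode the tags that are coupled to the membrane. Map1lc3a (chr2:155276297-155278073, plus strand) was at 50.3, 55.2, 54.4 and 47.9 CPM on the normal diet at 22 weeks and at 60.9, 74.9, 82.1 and 68.9 on the Western diet. All Western libraries were higher, by 0.46 ± 0.14 on the log2 scale (adjusted p = 0.138). At 6 weeks the diets overlapped, at 54.2, 48.4, 59.1 and 61.5 against 46.1, 57.4, 50.5 and 74.1. Map1lc3b (chr8:121590361-121598760, plus strand) gave the widest diet value at 22 weeks, 0.96 ± 0.34 (adjusted p = 0.205). Its 22-week values were 157, 61.6, 63.7 and 72.7 on the normal diet and 158, 200, 171 and 164 on the Western diet, so that Sham22W replicate 1 lay next to the Western libraries and the other 3 far below. At 6 weeks the values were spread within groups too, with high values below those of 22 weeks, at 59.1, 111, 121 and 67.7 on the normal diet and 60.3, 69.8, 62.7 and 142 on the Western diet. Zcchc14, which overlaps the end of Map1lc3b on the other strand, was at 180 to 259 CPM in the normal-diet libraries of 22 weeks and at 172 to 221 in the Western ones. A merged locus of 4.44 Mb that names Usp10, Galnt2l and Galnt2 also spans Map1lc3b, at 216 to 338 CPM over the 16 libraries. The part of these loci in the values of Map1lc3b was not tested.

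Gabarapl1 (chr6:129533160-129542346, plus strand) was at 101, 81.5, 92.5 and 39.5 CPM on the normal diet at 6 weeks and at 102, 155, 110 and 161 on the Western diet. Every Western library was higher, by 0.75 ± 0.23 on the log2 scale (adjusted p = 0.223), although AS6W replicate 1 and Sham6W replicate 1 nearly met. Without Sham6W replicate 4, the lowest library, the log2 fold change was 0.53. At 22 weeks the diets overlapped, at 161, 132, 119 and 137 against 135, 160, 166 and 143. Gabarap overlapped between the diets at 6 weeks, and its Western libraries all lay higher at 22 weeks. It was at 181, 174, 191 and 195 CPM against 149, 161, 171 and 178 at 6 weeks, and at 133, 116, 137 and 127 against 140, 157, 156 and 147 at 22 weeks. The log2 fold changes were -0.17 ± 0.08 and 0.23 ± 0.08, and their difference of 0.40 ± 0.12 had the lowest p of the set for this comparison but did not pass (adjusted p = 0.193). Gabarapl2 was at 33.7, 33.0, 36.4 and 32.0 against 26.1, 42.1, 29.3 and 48.5 at 6 weeks and at 36.4, 36.9, 34.1 and 40.4 against 41.7, 42.1, 39.6 and 43.2 at 22 weeks, with overlap at both times.

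The fusion genes gave diet values of -0.19 to -0.05 at 6 weeks and -0.06 to 0.24 at 22 weeks, with 0 of 4 called and no groups free of overlap. Epg5 was at 70.3, 66.4, 77.3 and 76.2 CPM on the normal diet and at 73.7, 66.1, 70.4 and 70.9 on the Western diet at 6 weeks. At 22 weeks it was at 89.9, 84.6, 86.8 and 87.2 against 85.4, 101, 85.0 and 86.8. Vamp8, the lysosomal partner of Stx17 and Snap29, was split within both 6-week groups. Its locus, shared with Vamp5, was at 15.7, 14.3, 37.2 and 35.4 CPM on the normal diet and at 33.4, 11.9, 14 and 32.5 on the Western diet, with nothing between 15.7 and 32.5. At 22 weeks all 8 libraries lay between 30.1 and 43.5. Vamp8 and Nrbf2 are given in every library here because their spread was seen in the data.

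Across the set, 6 members had a highest library more than 2-fold above the lowest within at least 1 group: Nrbf2 (3.96-fold), Vamp8 (2.80-fold), Map1lc3b and Gabarapl1 (both 2.55-fold), Atg14 and Atg4c (both 2.05-fold). Some libraries were low for several of them. Sham6W replicate 1 was lowest of its group for Nrbf2 and Map1lc3b and low for Vamp8, and Sham6W replicate 4 was lowest for Gabarapl1 and Atg14. Low values of Vamp8 were also those of Sham6W replicate 2 and AS6W replicates 2 and 3. The median over members of the mean within-group coefficient of variation was 10.2%.

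The genes most alike were named by the Pearson correlation of log2(FPKM + 0.5) over the 16 libraries after subtracting group means, among tested loci that name 1 gene, for the 4 members with the lowest p for diet at 22 weeks. For Tmem41b they were Zfp930 (r = 0.89), Cmss1 (0.87) and Tlr3 (0.86), and for Map1lc3a Mirg (0.91), Smpd1 (0.89) and Klhl28 (0.86). For the Vmp1 locus they were Gm16958 (0.93), Iqck (0.91) and Nxt2 (0.87), and for Wipi1 they were 4933404O12Rik (0.93), Chrd (0.92) and Slc66a2 (0.86). These are the highest of many values each and share libraries and depth, and they are given as a description.

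The comparison of times asks how the machinery differs between 22 and 6 weeks on the same diet. Mice of 22 weeks were also older (30 against 14 weeks), and the library identifiers in the labels belong to a different series at each time, so weeks on diet, age and library series cannot be told apart. On the normal diet 29 of 41 members passed (70.7%), 19 higher and 10 lower at 22 weeks, where 46.7% of all loci passed (24.0% higher, 22.6% lower). On the Western diet 22 members passed (53.7%), 15 higher and 7 lower, where 43.8% of all loci passed (21.9% in either direction). The share of loci that passed was larger at higher levels. With the filter at FPKM 5, 66.3% of loci passed on the normal diet and 63.6% on the Western diet. Of the 29 members left by that filter, 22 and 19 passed. The median log2 fold change of the members was 0.26 and 0.17, against 0.02 and -0.02 over all loci. On the FPKM scale the median over all loci shifted to -0.16 and -0.21, and limma on log2(FPKM + 0.5) called 27 members on the normal diet, 11 higher and 16 lower, and 20 on the Western diet, 7 higher and 13 lower. The same fit called 50.5% of all loci on the normal diet (17.6% higher, 32.9% lower) and 48.7% on the Western diet (15.2% higher, 33.4% lower), so the share of members on the Western diet was that of all loci. No member called by edgeR had the opposite sign there, but on each diet 8 edgeR calls were lost and 6 gained. Lost on both diets were Atg101, Ambra1, Wdr45, Atg16l1 and Epg5. Uvrag, Wipi1 and Atg7 were lost on the normal diet, and Atg14, Rubcn and Atg4d on the Western diet. Without the 4 libraries that stood apart in T cell, B cell or cardiac markers 24 and 16 members passed, where 40.0% and 36.8% of all loci did. On the Western diet 16 of 41 is close to the share of all loci.

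These changes went with the GC content of the transcripts. The members higher at 22 weeks had a median GC of 53.7% on the normal diet and 53.8% on the Western diet, and those lower had 45.4% and 45.2%. Across the 41 members the log2 fold change and GC had a Pearson r of 0.692 and 0.654, and across 15684 tested loci with an annotated transcript 0.590 and 0.581, while in the diet comparisons r over these loci was 0.049 at 6 weeks and -0.0113 at 22 weeks. These r values are across genes, which are not independent replicates. Only 65.1% of tested loci had a GC value, so the check does not cover all loci. All 41 members had a GC value. A fit with an offset for GC content, added after seeing the data, called 9 members on each diet, where 32.4% of the 15684 loci with a GC value passed on the normal diet and 27.1% on the Western diet. The part of GC content in the time changes cannot be told apart from that of age and library series, and values with the offset stand beside the members below.

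**Figure D4:**
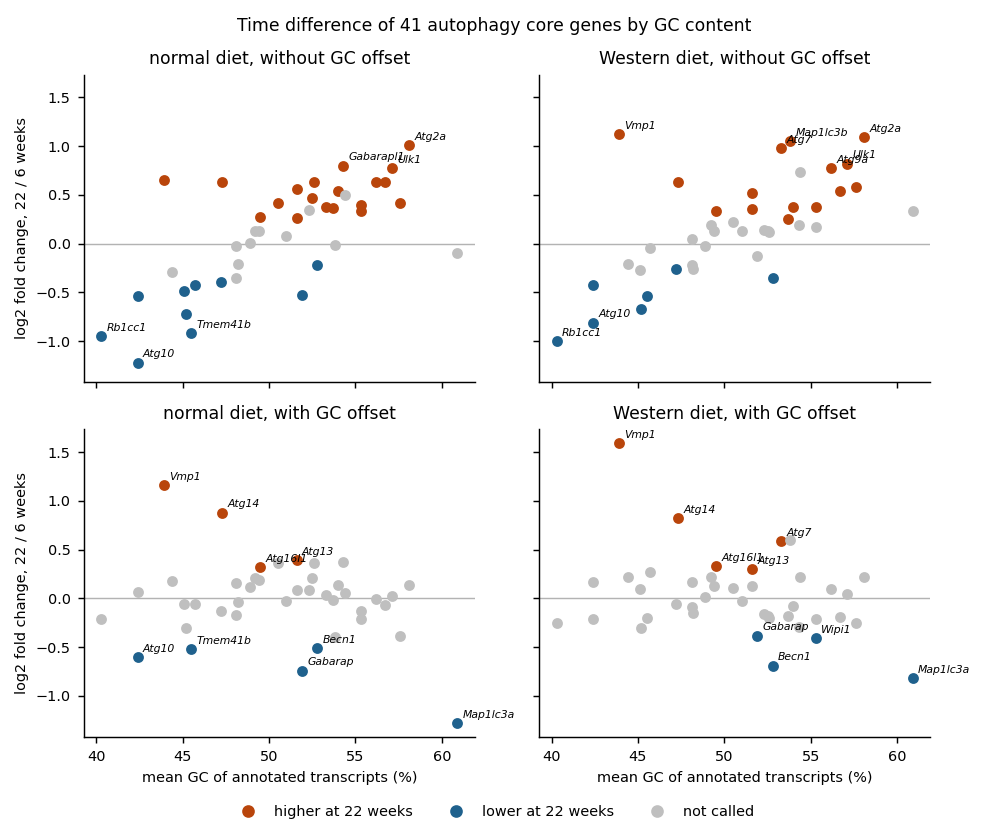
Log2 fold change of the 41 genes, 22 over 6 weeks, against the mean GC content of their annotated transcripts, on the normal (left) and Western diet (right), without (top) and with (bottom) an offset for GC content. Coloured points passed an adjusted p of 0.05 in edgeR; 29 and 22 genes did so without the offset and 9 and 9 with it.

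On both diets 14 members were higher at 22 weeks and 7 lower, 11 passed on neither, 8 passed on the normal diet alone and 1, Map1lc3b, on the Western diet alone; no member passed in opposite directions. Of all loci 46.7% passed on the normal diet and 43.8% on the Western diet. How many passed on both, or kept their call in the alternatives, was not counted over all loci. The counts here therefore describe the members alone. A pass on 1 diet does not show that the diets differ. The test of that is the difference of the diet effects given above, and 0 members passed it. On the normal diet 23 of the 29 calls were kept when any 1 library was left out; those of Atg101 (without Sham6W replicates 1 or 3 or Sham22W replicates 3 or 4), Uvrag (without Sham6W replicates 1, 3 or 4 or Sham22W replicates 2 or 3), Atg16l1 (without Sham6W replicate 2), Becn1, Atg4c and Atg7 (libraries given below) were lost. On the Western diet 19 of 22 were kept, and those of Pik3c3 (without AS6W replicates 1 or 4 or AS22W replicates 1, 2 or 3), Ambra1 (without AS6W replicates 2 or 4) and Map1lc3b were lost. In every alternative that tested the gene, the GC offset included, 6 calls were kept on the normal diet (Atg13, Atg14 and Vmp1 higher; Tmem41b, Atg10 and Gabarap lower) and 4 on the Western diet (Atg13, Vmp1 and Atg7 higher; Becn1 lower).

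In the initiation complex 3 of 5 genes rose on both diets and 1 fell. Ulk1 rose by 0.77 ± 0.16 and 0.82 ± 0.16 (adjusted p = 0.000922 and 0.000648), Atg13 by 0.56 ± 0.10 and 0.52 ± 0.10, and Atg101, which stabilises Atg13, by 0.42 ± 0.15 and 0.58 ± 0.15. Rb1cc1, the scaffold of the complex also known as FIP200, fell. Its CPM was 73.7 to 81 on the normal diet and 75.5 to 93.1 on the Western diet at 6 weeks, and 33.9 to 43.8 and 37.8 to 44.2 at 22 weeks, a log2 change of -0.95 ± 0.10 and -1.0 ± 0.10 (adjusted p = 2.36e-06 and 1.85e-06). Ulk2 gave -0.02 ± 0.09 and 0.05 ± 0.09, so that the paralogs Ulk1 and Ulk2 gave different values without the GC offset. With it Ulk1 stood at 0.03 and 0.05, Ulk2 at 0.16 and 0.17 and Rb1cc1 at -0.21 and -0.25, without a call. Atg13 was called with the offset, at 0.39 and 0.30. Atg101 turned to -0.38 and -0.25 with the offset, without a call. Mean transcript GC was 57.1% for Ulk1, 57.6% for Atg101, 51.6% for Atg13, 48.1% for Ulk2 and 40.3% for Rb1cc1.

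Of the lipid kinase genes Atg14, Rubcn and Ambra1 rose on both diets, and Becn1 and Pik3c3 fell. Atg14, which directs the complex to the sites where autophagosomes form, rose by 0.63 ± 0.19 on either diet (adjusted p = 0.0115 and 0.0123), and by 0.88 and 0.82 with the GC offset, both called. Its CPM was 7.04 to 14.5 and 10.4 to 12.5 at 6 weeks and 14.9 to 20.4 and 15.4 to 21.9 at 22 weeks. Becn1 fell by 0.22 and 0.35 on the log2 scale (adjusted p = 0.0292 and 0.00195), and by 0.51 and 0.69 with the offset. The call on the normal diet was lost without Sham6W replicates 1, 3 or 4 or Sham22W replicates 1 or 3 in turn. Uvrag, which forms the alternative complex of the endosome, passed on the normal diet (0.42 ± 0.16, adjusted p = 0.0398). Rubcn, an inhibitor of that complex, rose by 0.54 ± 0.09 and 0.37 ± 0.09, and with the offset gave 0.14 and -0.08 without a call. With the offset Pik3c3 stood at -0.13 and -0.06 and Ambra1 at -0.02 and -0.18, without a call. The calls of Ambra1 also rest on its chosen locus: with its loci summed the values were 0.12 (adjusted p = 0.167) and 0.00 (adjusted p = 0.992), and in limma on FPKM 0.14 and 0.01 (adjusted p = 0.187 and 0.920). In limma Rubcn on the Western diet was at 0.12 (adjusted p = 0.296) and Atg14 at 0.32 (adjusted p = 0.0846). Pik3r4, the regulatory subunit, gave 0.08 ± 0.09 and 0.13 ± 0.09, and Nrbf2 0.34 ± 0.31 and 0.14 ± 0.31.

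Among the lipid transfer and phosphoinositide genes, Atg2a had the lowest p of the set on the normal diet and the lowest on the Western diet. It was at 50.6, 51.9, 45 and 50.6 CPM on the normal diet and at 46.0, 48.1, 47.6 and 40.1 on the Western diet at 6 weeks. At 22 weeks it was at 98.6, 92.9, 103 and 105 on the normal diet and at 90.8, 105, 98.5 and 92.8 on the Western diet. The rise was 1.01 ± 0.09 and 1.09 ± 0.09 (adjusted p = 4.66e-07 and 2.90e-07), and with the GC offset the values were 0.14 and 0.22 without a call. Its paralog Atg2b was at 88.5, 84.9, 89.4 and 96.4 CPM on the normal diet and at 87.1, 101, 96.8 and 99.1 on the Western diet at 22 weeks, close to the 6-week values given above, with changes of 0.01 ± 0.07 and -0.03 ± 0.07. With the GC offset Atg2b gave 0.12 and 0.02, without a call. Transcript GC was 58.1% for Atg2a and 48.9% for Atg2b.

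Vmp1 and Tmem41b, scramblases that act together at the endoplasmic reticulum, went in opposite directions on both diets. The Vmp1 locus rose by 0.65 ± 0.16 and 1.12 ± 0.16 (adjusted p = 0.00404 and 5.96e-05), and the offset raised the values to 1.16 and 1.59. Tmem41b fell by 0.92 and 0.54 (adjusted p = 7.71e-05 and 0.00493); with the offset it gave -0.52 with a call on the normal diet and -0.20 without one on the Western diet. Transcript GC was 43.9% for Vmp1 and 45.5% for Tmem41b, so this pair differed in direction at a similar GC content. Atg9a rose by 0.63 ± 0.10 and 0.77 ± 0.10 and gave -0.01 and 0.10 with the offset. Wdr45, a phosphoinositide reader encoded on the X chromosome, rose by 0.40 ± 0.09 and 0.37 ± 0.09 and turned to -0.13 and -0.21 with the offset. Wdr45b gave 0.13 ± 0.09 on either diet, and 0.19 and 0.13 with the offset, without a call. Wipi2 rose on the normal diet (0.63 ± 0.17, adjusted p = 0.00568), from the low 6-week level given above, and gave 0.12 ± 0.16 on the Western diet; with the offset it stood at 0.36 without a call on the normal diet. Wipi1 rose on the normal diet (0.33 ± 0.09, adjusted p = 0.00688) and gave 0.17 ± 0.09 on the Western diet, but with the offset it stood at -0.21 without a call and at -0.41 with one.

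Calls of the conjugation genes went in both directions, with 5 higher and 5 lower of 15 on the normal diet and 4 higher and 3 lower on the Western diet. On the normal diet this is 33.3% in either direction, where 24.0% of all loci were called higher and 22.6% lower. On the Western diet it is 26.7% and 20%, where 21.9% of all loci were called in either direction. Calls in both directions were thus also those of all loci. Atg7 rose by 0.38 ± 0.13 and 0.98 ± 0.13 (adjusted p = 0.0298 and 3.59e-05); with the offset it gave 0.04 without a call and 0.59 with one. The call on the normal diet was lost without Sham6W replicates 1, 3 or 4 or Sham22W replicates 3 or 4 in turn. Atg16l1 rose by 0.27 ± 0.08 and 0.33 ± 0.08, and gave 0.32 and 0.33 with the offset, both called, but limma on FPKM gave 0.05 (adjusted p = 0.577) and 0.07 (adjusted p = 0.451). Its calls were also lost without a filter on low values (adjusted p = 0.149 and 0.0506) and, on the normal diet, without the 4 libraries (adjusted p = 0.143). Atg3 fell by 0.54 and 0.42 and turned to 0.07 and 0.17 with the offset. Atg10 fell by 1.22 and 0.81 at its chosen locus (adjusted p = 3.12e-05 and 0.00108), but with all its loci summed the change was -0.33 (adjusted p = 0.0367) and -0.09 (adjusted p = 0.568). Atg5 and Atg12 did not pass on either diet, at -0.21 ± 0.12 and -0.26 ± 0.12 for Atg5 and -0.29 ± 0.12 and -0.21 ± 0.12 for Atg12.

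The proteases of the Atg4 family split by paralog. Atg4d rose by 0.63 ± 0.14 and 0.54 ± 0.14, and Atg4b rose on the normal diet by 0.47 ± 0.08 (adjusted p = 0.000231) and gave 0.13 ± 0.08 on the Western diet. Atg4a fell by 0.72 and 0.67, and Atg4c fell on the normal diet by 0.49 (adjusted p = 0.0413) and gave -0.27 ± 0.18 on the Western diet. The call of Atg4c was lost without any of Sham6W replicates 1 to 4 or Sham22W replicates 1 or 4. With the GC offset none of the 4 proteases was called, and Atg4d turned to -0.07 and -0.19. Transcript GC was 56.7% for Atg4d and 52.5% for Atg4b, against 45.2% for Atg4a and 45.1% for Atg4c.

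In the LC3 and GABARAP family Gabarap fell on the normal diet by 0.53 (adjusted p = 0.000118) and gave -0.13 ± 0.08 on the Western diet. Gabarapl1 rose on the normal diet by 0.80 ± 0.23 (adjusted p = 0.00977) and gave 0.19 ± 0.23 on the Western diet. Map1lc3b rose on the Western diet by 1.05 ± 0.34 (adjusted p = 0.0205), a call lost without AS6W replicates 1, 2 or 3, and gave -0.01 ± 0.34 on the normal diet. Map1lc3a gave -0.10 ± 0.14 and 0.33 ± 0.14, and Gabarapl2 0.13 ± 0.15 and 0.19 ± 0.15, without a call. With the GC offset Gabarap was lower on both diets (-0.74 and -0.38, both called), and Map1lc3a, whose transcript GC of 60.9% was the highest of the set, was lower too (-1.28 and -0.82, both called). Gabarapl1 stood at 0.37 on the normal diet and Map1lc3b at 0.60 on the Western diet with the offset, without a call. Of the fusion genes Epg5 rose by 0.26 ± 0.08 and 0.35 ± 0.08, and Snap29 fell on the normal diet by 0.43; with the offset they stood at 0.09, 0.13 and -0.06 without a call. Stx17 gave -0.35 ± 0.14 and -0.22 ± 0.14, and Vamp8 0.50 ± 0.35 and 0.73 ± 0.35, without a call.

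The 6 members with an E-box in their window did not share a direction. Atg7, Atg14 and Rubcn rose with time on both diets, Atg3 fell on both, and Atg5 and Nrbf2 passed on neither. With the GC offset Atg14 was called on both diets and Atg7 on the Western diet; Rubcn was not called, Atg3 turned to values above 0 without a call, and none of the 6 was called lower. For diet none of them passed.

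Marker sums differed between the times as well. The smooth muscle sums above did not overlap between 6 and 22 weeks, the 9 brown adipocyte markers had medians of 1791 and 1693 at 6 weeks and 454 and 1030 at 22 weeks, and the macrophage markers had medians of 216 and 269 at 6 weeks and 563 and 913 at 22 weeks, normal diet before Western. Their part in the time changes of the members was not tested.

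The wider pathway was read from lists of genes that act on this machinery. In the diet comparisons none of the genes tested passed an adjusted p of 0.05 in edgeR, over mTORC1 and its lysosomal regulators (15 tested), AMPK (9), the TFEB family (6), the HOPS tether and late fusion (15), autophagy receptors (17) and regulators of the kinase complex (7). The lowest p values for diet at 22 weeks were those of Phb2 (0.54 ± 0.16, adjusted p = 0.137), a mitophagy receptor of the inner membrane, and Bcl2 (-0.27 ± 0.08, adjusted p = 0.137), an inhibitor of Becn1 whose locus also names Kdsr. At 6 weeks it was Deptor, an inhibitor of mTOR, at 391, 315, 217 and 267 CPM on the normal diet and 123, 197, 125 and 192 on the Western diet (-0.90 ± 0.26, adjusted p = 0.195), where every Western library was lower. With time 62.3% of the 69 tested genes passed on the normal diet and 56.5% on the Western diet, where 46.7% and 43.8% of all loci did. With the filter at FPKM 5, 66.3% and 63.6% of loci passed, and the lists were not counted at that filter. On the normal diet 4 mTORC1 genes rose and 5 fell, 1 AMPK gene rose and 4 fell, 3 TFEB family genes rose and 1 fell, 7 HOPS and fusion genes rose and 4 fell, 3 receptors rose and 6 fell, and 3 regulators rose and 2 fell. On the Western diet the counts were 7 and 0, 2 and 4, 2 and 1, 7 and 3, 4 and 4, and 3 and 2. Of all loci 24.0% were called higher and 22.6% lower on the normal diet, and 21.9% in either direction on the Western diet. Rptor, the subunit of mTORC1 that binds its substrates, rose by 0.77 ± 0.07 and 0.92 ± 0.07 (adjusted p = 8.87e-07 and 2.49e-07), and Tfeb rose on the Western diet by 1.14 ± 0.14 (adjusted p = 1.62e-05), both without the GC offset. With the offset 9 of the 69 genes were called higher and 19 lower on the normal diet, and 5 and 8 on the Western diet. The same fit called 32.4% of the loci with a GC value on the normal diet and 27.1% on the Western diet. The lists lay above that share on the normal diet and below it on the Western diet. None of the TFEB family was called.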

How the data were processed

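RNA sequencing of aorta gave 16 libraries in 4 groups. Per the submitters' processing notes, cutadapt 1.9, FastQC and the GRCm38 build were used; the sources used here do not give the aligner, the counter or the strand setting. The deposited table holds an estimated count and an FPKM value per locus and library, made by the authors (per the file headers); the counts are whole numbers. Library size was the sum over loci that name a gene; 3714 loci without a name held 0.606% of counts. The 24091 named loci reaching FPKM 1 in 4 libraries were fitted in edgeR 4.0.16 (R 4.3.3) with TMM scaling, group means over all 16 libraries and its quasi-likelihood test; p-values were adjusted by Benjamini-Hochberg and called at 0.05. CPM values are TMM-scaled, and ± after a log2 fold change is its standard error. Alternatives used limma 3.58.1, DESeq2 1.42.0, other filters and scalings, each library left out, and 2 settings chosen after seeing the data: without 4 libraries, and an offset for transcript GC content (lowess span 0.3). The fit was tested on simulated data. Named members are the 4 with the lowest p in each comparison, the highest of each step in FPKM, and paralogs of these; Nrbf2 and Vamp8 were added after their values were seen. The members and lists were chosen with earlier results of these data known.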

Additional observations from a re-analysis of the deposited data

Results flagged for a closer look

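A library far from the other 3 of its group was looked for in the CPM of 19 named members, in 76 groups of 4, with Dixon's ratio of gap to range at its 95% critical value. It was found in 5 of the 76, and chance alone gives about 1 in 20. Map1lc3b stood at 142 CPM in AS6W replicate 4, where the others held 60.3 to 69.8, and at 157 in Sham22W replicate 1, where the others held 61.6 to 72.7. Wipi1 stood at 44.6 in Sham22W replicate 2, against 40.0 to 40.6 in the others. In AS22W replicate 2 Ambra1 stood at 83.5 against 78.1 to 78.5, and Epg5 at 101 against 85.0 to 86.8.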

How the results depend on the processing

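In the diet comparisons the count of members called at 6 weeks was 1 in place of 0 under limma with either pseudocount, under DESeq2 and with the filter at FPKM 5, each time Wipi2. Leaving out 1 library gave 0 to 1 at 6 weeks (1 without Sham6W replicate 3) and 0 to 0 at 22 weeks and for the difference; DESeq2 called 1 at 22 weeks, Tmem41b. With the filter at FPKM 5, which left 29 members, their median log2 fold change was 0.02 at 22 weeks and -0.02 for the difference. For time on the normal diet the median was 0.05 and 0.06 under limma, 0.12 with loci summed per gene, 0.19 without the 4 libraries, 0.03 with the GC offset, and 0.13 to 0.30 without 1 library (0.13 without Sham6W replicate 1). On the Western diet it was -0.07 under limma with either pseudocount, 0.07 at FPKM 5, 0.08 with loci summed and -0.03 with the GC offset. Members called numbered 24 to 28 and 20 to 22 without 1 library, and 9 and 9 with the GC offset. The median level was 5.59 FPKM with all loci of a gene summed.

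Over all loci, DESeq2 called 459, 828 and 497 for diet at 6 weeks, at 22 weeks and for the difference, against 68, 55 and 44 in edgeR. At 22 weeks limma called 146 and 140, edgeR without a filter 12, with the libraries of that comparison alone 0, and with loci summed 90; the difference was not fitted with fewer libraries. Leaving out 1 library gave 0 (Sham22W replicate 2) to 429 (Sham22W replicate 4) at 22 weeks, 30 to 74 at 6 weeks and 3 to 74 for the difference. Without the 4 libraries 27, 59 and 0 loci passed. Without a filter and in limma with pseudocount 0.1 the difference gave 26 loci. For time, the filter at FPKM 5 gave 4101 and 3936 calls, which is 66.3% and 63.6% of its 6186 loci. The filter at FPKM 1 gave 11247 and 10561, which is 46.7% and 43.8% of 24091 loci. The GC offset gave 6537 calls on the Western diet, with loci that lack a GC value fitted without it. Library numbers were not taken as a pairing in the main fit. Deviations of same-numbered libraries correlated at -0.246 to 0.184. Libraries of different number were not compared in this way, so these values cannot decide whether the numbers pair libraries. With a replicate block 28, 26 and 0 loci passed for diet, and members called numbered 0, 0, 0, 27 and 22 over the 5 comparisons. Library totals were 45253433 to 81397840 estimated counts, and the lowest mean count of a member was 478, for Atg10.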
